A study of Mus musculus with 2 samples.

Results

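The genes described here are 9 enzymes that detoxify superoxide, peroxides and quinones (Sod1, Sod2, Cat, Gpx1, Gpx3, Gpx4, Prdx1, Txnrd1 and Nqo1) and Txnip, an inhibitor of thioredoxin. These 10 genes were picked by symbol from the 22383 features of the count matrices, by a rule that uses no measured value but was set with earlier results of these data known. Superoxide dismutases turn superoxide into hydrogen peroxide, Sod1 in the cytosol and Sod2 in mitochondria. Peroxides are then removed by catalase, by glutathione peroxidases and by peroxiredoxins, the last of which are recharged by thioredoxin and thioredoxin reductase. Pancreatic β-cells are known for low catalase and glutathione peroxidase, and Txnip, which is induced by glucose, is known to promote β-cell death.

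Pancreatic islets of C57BL/6N mice aged 5 weeks were profiled by single-cell RNA sequencing, with 1 library per group, each of 150 islets pooled from 4 mice and cultured overnight at 37 °C. The mice of the group labelled TBL/RβKO carried loxP-flanked Tbl1x and Tbl1xr1, 2 subunits of a nuclear co-repressor complex, and Cre recombinase inserted at the Ins1 locus, which is active in β-cells. The control group is labelled wildtype and, by the study's methods, consisted of littermates without Cre. The question was how loss of both co-factors in β-cells altered islet cell transcripts, and with 1 library per group no replicate spread exists, so no test was run. All intervals below are 95% intervals that cover counting error only.

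Barcodes with more than 2500 detected genes and under 10% mitochondrial UMIs were kept (4747 of 7067 in the control library and 4179 of 5833 in the library labelled TBL/RβKO), and 14 of the deposited barcode sequences occurred in both libraries. A barcode was put in the β, α, δ or PP class by its most abundant hormone (Ins1 plus Ins2, Gcg, Sst or Ppy), at 100 or more UMIs per 10000. The β class held 2877 barcodes in the control library and 1338 in the library labelled TBL/RβKO, the α class 1284 and 1546, the δ class 223 and 374, and the PP class 259 and 495. Levels are CPM, UMIs per 1000000 UMIs outside the 5 hormone genes, because insulin made up 49.6% of all UMIs in the control β class and 27.9% in the other. The β classes also differed in depth (median of 25335 and 46578 UMIs outside hormones), in the share of barcodes with 6000 or more genes (49.5% and 76.7%) and in the share with a second hormone at 100 or more per 10000 (16.3% and 60.8%). The targeted genes went against the label. Tbl1x stood at 197 CPM in control β barcodes and at 509 CPM in the library labelled TBL/RβKO, and Tbl1xr1 at 40.7 and 187 CPM, and 3′ tags do not show whether floxed exons were present. Cre UMIs from the coding strand were absent from the control library and were found in 274 of 1338 β barcodes of the other (20.5%). The β class of the library labelled TBL/RβKO also held less Mafa (940.7 against 124 CPM) and Slc2a2 (641 against 80.2 CPM), both defining β-cell genes, while Pdx1 stood at 231 and 118 CPM.

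All 10 members are protein-coding genes on 9 chromosomes of GRCm39. Txnip is a compact gene of 8 exons at chr3:96465267-96469201 on the plus strand, and Txnrd1 spans chr10:82669785-82733546 on the same strand. Prdx1 lies at chr4:116532123-116558398 and Nqo1, on the minus strand, at chr8:108113835-108129934. The 250 bases before each RefSeq transcription start (build GRCm38.p6) were searched on both strands for the antioxidant response element core TGACNNNGC, the letters bound by NRF2 with a small MAF partner, for the E-box CACGTG, and for the paired carbohydrate response element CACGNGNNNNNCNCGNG, whose outer letters resemble an E-box and can overlap one. All 10 members had a promoter entry. The response element core occurred in 3 of them (Sod1, Prdx1 and Txnrd1), the paired carbohydrate element in Txnip alone, and the E-box in none. Of 27025 genes with promoters of the same length, 11.5%, 0.326% and 6.86% held these letters before at least 1 listed start, in the order core, paired element and E-box. The promoters of 3 genes are shown because these genes carried the differences described below, each 5′ to 3′ in lower case with the matched letters in capitals. They cover chr3:96557707-96557956, chr10:82858956-82859205 (the second of 3 listed starts) and chr4:116685349-116685598, all on the plus strand.
Txnip: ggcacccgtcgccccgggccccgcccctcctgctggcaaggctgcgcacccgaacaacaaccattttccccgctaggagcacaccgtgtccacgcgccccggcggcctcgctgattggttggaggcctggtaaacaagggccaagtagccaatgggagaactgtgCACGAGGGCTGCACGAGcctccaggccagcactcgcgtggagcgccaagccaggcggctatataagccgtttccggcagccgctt
Txnrd1: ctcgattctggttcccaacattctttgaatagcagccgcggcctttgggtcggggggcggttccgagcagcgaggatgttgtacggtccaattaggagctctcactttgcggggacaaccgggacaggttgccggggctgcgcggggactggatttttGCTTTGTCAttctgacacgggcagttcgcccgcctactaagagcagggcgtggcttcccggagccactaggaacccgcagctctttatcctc
Prdx1: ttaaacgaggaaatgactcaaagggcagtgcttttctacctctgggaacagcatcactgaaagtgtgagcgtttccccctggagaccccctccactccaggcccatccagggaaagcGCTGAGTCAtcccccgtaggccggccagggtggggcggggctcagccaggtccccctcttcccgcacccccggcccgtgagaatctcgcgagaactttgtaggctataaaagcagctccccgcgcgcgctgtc
The capitals in Txnip mark the paired element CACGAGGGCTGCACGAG, from 85 to 69 bases before the start. In Txnrd1 and Prdx1 the capitals mark the core read on the minus strand, GCTTTGTCA from 92 to 84 bases and GCTGAGTCA from 133 to 125 bases before the start. These letters are a description of the windows and not evidence of a bound site. Nqo1, a classical NRF2 target, held no match in this window, and more distant sequence was not searched.

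The members separated the islet classes to very different degrees. Gpx3, a secreted glutathione peroxidase, was highest in the α class, at 1010 CPM in the control library and 1021 CPM in the library labelled TBL/RβKO. The δ class stood at 432 and 422 CPM, the PP class at 456 and 255 CPM and the β class at 110 and 144 CPM. Gpx3 in control α barcodes was thus 9.17-fold above control β barcodes, and macrophage-like and endothelial-like barcodes, which should lack islet transcripts, held 4.34 to 9.64 CPM in both libraries, a level read as background.
Cat, the peroxisomal catalase, was close to the lower limit in the β class (8.08 and 8.79 CPM) and lower still in the α class (2.43 and 2.70 CPM). In the δ class it stood at 28.9 and 22.7 CPM, and in macrophage-like barcodes at 135 and 90.8 CPM. Control macrophage-like barcodes therefore held 16.7 times the Cat level of control β barcodes. Cytosolic Gpx1 was likewise highest in macrophage-like barcodes, with 576 and 641 CPM there, 211 and 159 CPM in the δ class and 97.6 and 76.6 CPM in the β class.
Prdx1, the main cytosolic peroxiredoxin, was at 4821 and 4236 CPM in macrophage-like barcodes and at 267 to 518 CPM in the α, β, δ and PP classes of both libraries. Nqo1, a quinone reductase, was highest in stromal-like barcodes (43.6 and 69.4 CPM) and reached only 4.91 and 5.84 CPM in the α class. In the control library the stromal-like interval overlapped that of endothelial-like barcodes (24.9 CPM).
Gpx4, Txnrd1 and Sod2 varied least over the 7 groups of control barcodes. Gpx4, which repairs lipid peroxides in membranes, ran from 282 to 354 CPM, and neighbours in that order overlapped in their intervals. Txnrd1 ran from 200.2 CPM in the PP class to 296 CPM in the δ class, whereas in the library labelled TBL/RβKO the β class was highest at 543 CPM. Sod2 ran from 113 to 198 CPM and Sod1 from 89.2 to 206 CPM in the control library, with macrophage-like barcodes lowest for Sod1. For Sod2 macrophage-like barcodes and the PP class (179 CPM) came first, with overlapping intervals.
Txnip had its own order. In the control library it was highest in the α class (192 CPM), followed by the PP class (123 CPM) and endothelial-like barcodes (115 CPM), whose intervals overlapped, and then by the β class (87.2 CPM). The δ class (62.9 CPM) and stromal-like barcodes (55.0 CPM) overlapped, and macrophage-like barcodes were lowest (15.7 CPM). In the library labelled TBL/RβKO the PP and β classes came first at 180 and 177 CPM, with overlapping intervals, ahead of the α class at 167 CPM.

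**Figure D1:**
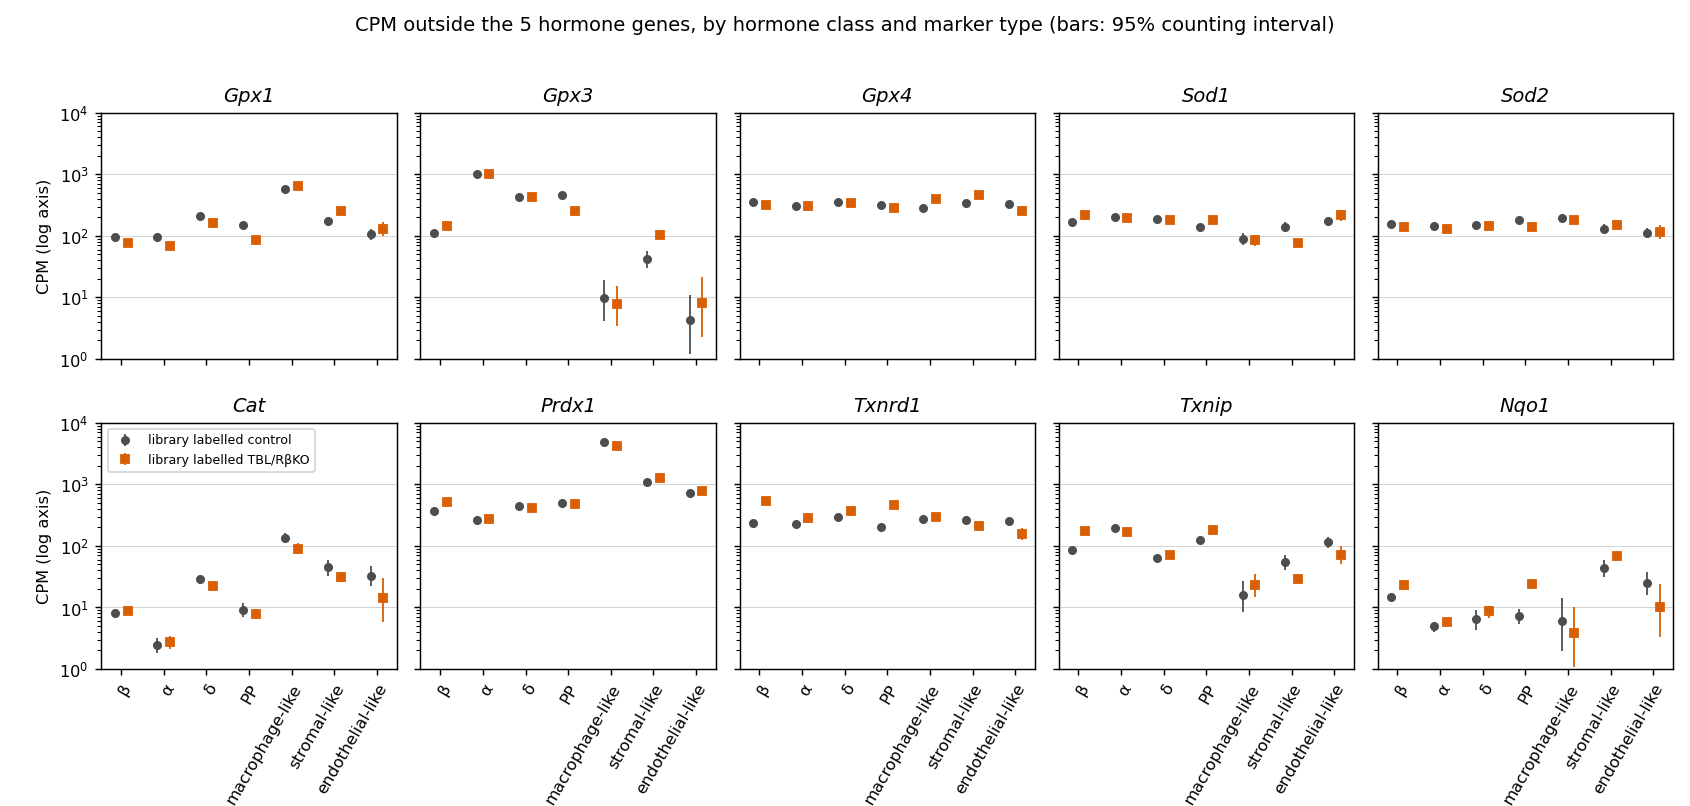
Level of each of the 10 members on a log axis (UMIs per 1000000 outside the 5 hormone genes) in the 4 hormone classes and in macrophage-like, stromal-like and endothelial-like barcodes, with circles for the control library, squares for the library labelled TBL/RβKO and bars for the 95% counting interval. Gpx3 peaks in the α class at 1010 and 1021 CPM, and Prdx1, Gpx1 and Cat peak in macrophage-like barcodes.

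In the β class, Txnrd1 and Txnip were the members with the highest ratio between libraries. Txnrd1, which reduces oxidised thioredoxin with NADPH, stood at 237 CPM in the control library and at 543 CPM in the library labelled TBL/RβKO, and Txnip at 87.2 and 177 CPM. Because the median gene of the β class had a log2 ratio of −0.20 (0.29 when CPM of all UMIs was used), each ratio was expressed relative to that median. The centred log2 ratio of Txnrd1 was 1.39 (interval 1.37 to 1.42) and that of Txnip 1.22 (1.18 to 1.26), which is above 97.6% and 96.8% of the genes tested. Of the 9 members at 10 CPM or more in either library, these 2 were at least 2-fold higher and none was at least 2-fold lower. The same limit was passed upward by 4.5% and downward by 2.47% of all 9386 genes tested. The members' median was 0.59, against 0 over all genes by construction. Txnip was under 2-fold, at 0.87, when only barcodes with every other hormone under 100 per 10000 were used, and Txnrd1 stayed past 2-fold in all 14 alternatives.
Prdx1, Sod1, Gpx3 and Nqo1 came next, without reaching 2-fold. Prdx1 stood at 368 and 518 CPM, a centred log2 ratio of 0.69 (0.67 to 0.71), and Sod1 at 170 and 217 CPM, a centred ratio of 0.54 (0.51 to 0.58). Nqo1 was sparse, at 15.0 and 22.8 CPM, with a centred ratio of 0.80 (0.69 to 0.90) that ranged from 0.21 to 1.09 over the alternatives. Gpx3, at 110 and 144 CPM, had a centred ratio of 0.59 (0.55 to 0.63), which dropped to 0.22 in barcodes with every other hormone under 100 per 10000.
Gpx1 was slightly lower relative to the median gene, at 97.6 and 76.6 CPM (centred −0.15, −0.20 to −0.11), although its uncentred ratio by CPM of all UMIs was 0.14. Gpx4 (354 and 323 CPM) and Sod2 (156 and 141 CPM) lay near the median gene with centred ratios of 0.06 and 0.05, and their sign depended on the scaling (−0.13 and −0.15 without centring, 0.35 and 0.34 by CPM of all UMIs). Cat was below the level tested.
Both β classes held barcodes with markers of other cell types. The marker rule used for non-endocrine barcodes was met by 71 of 2877 control β barcodes and 24 of 1338 in the library labelled TBL/RβKO. These carried macrophage, stromal, endothelial or B-cell markers. Of the 71, 51 were among the 132 control barcodes with 100 to 300 insulin UMIs per 10000. At 1000 or more the rule was met by 18 of 2714 control barcodes and 17 of 1095 in the other library. All 9 macrophage markers were detected in both β sums, at a summed level of 284 CPM in the control library and 73.0 CPM in the other. Endothelial markers summed to 53.8 and 27.0 CPM and B-cell markers to 24.7 and 26.9 CPM. Stromal markers went the other way, at 47.9 and 117 CPM, as did ductal markers, which were not counted here, at 425 and 1150 CPM. Without the 71 and 24 barcodes Prdx1 stood at 330 and 503 CPM, Gpx1 at 94.0 and 75.0 CPM and Cat at 6.95 and 8.49 CPM. Txnrd1 then stood at 236 and 546 CPM and Txnip at 87.4 and 179 CPM.

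**Figure D2:**
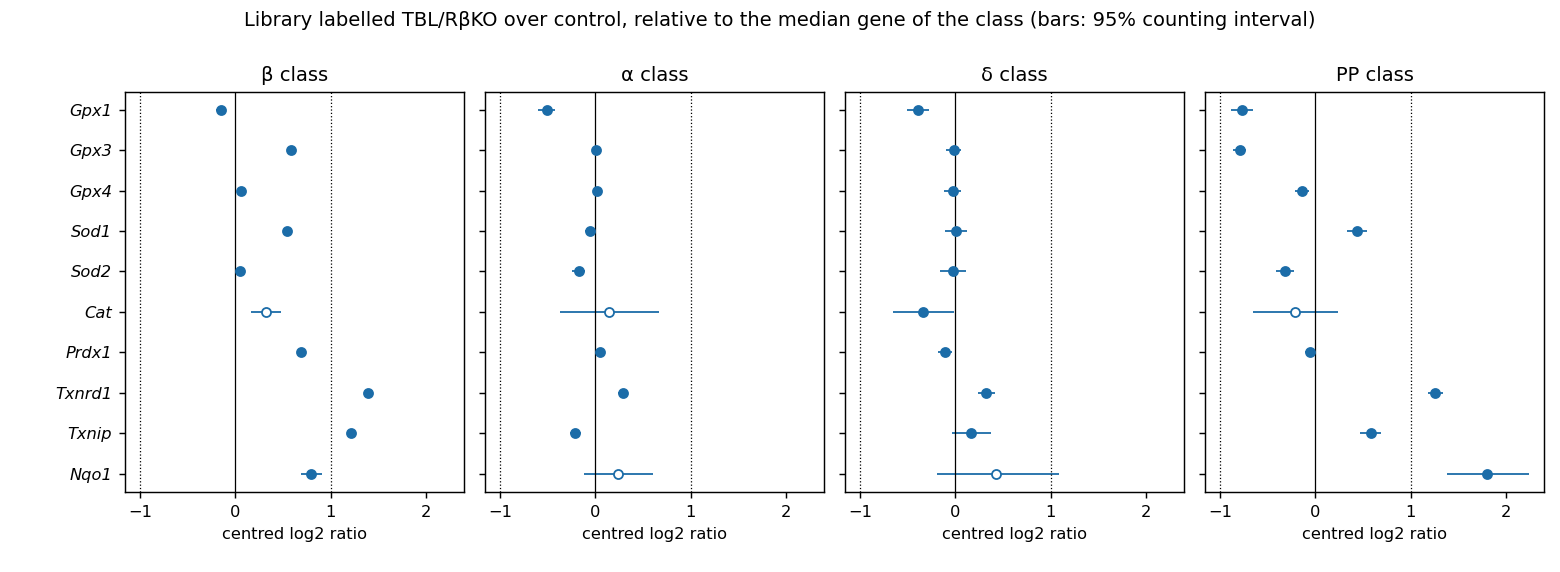
Centred log2 ratio (library labelled TBL/RβKO over control, relative to the median gene of the class) of each member in the 4 hormone classes, with bars for the 95% counting interval, dotted lines at 2-fold and open circles for members under 10 CPM in both libraries. Txnrd1 (1.39) and Txnip (1.22) lie past 2-fold in the β class, Txnrd1 (1.26) and Nqo1 (1.80) in the PP class, and no member does in the α and δ classes.

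In the α and δ classes few genes passed 2-fold, so a count of 0 members lay near the share of all genes. None of the 8 members tested in the α class and none of the 9 in the δ class passed 2-fold in either direction, against 0.739% and 0.211% of all genes upward and downward in the α class, and 0.95% and 0.616% in the δ class. The median gene of these classes had an uncentred log2 ratio of 0.01 and −0.01. Txnrd1 was modestly higher in both, at 230 and 282 CPM in the α class (centred 0.29, 0.23 to 0.34) and at 296 and 368 CPM in the δ class (0.33, 0.23 to 0.42). These ratios lay above 91.7% and 91.2% of the genes tested in the 2 classes. Txnip had the opposite sign in the α class, at 192 and 167 CPM (−0.21, −0.27 to −0.15), and its δ interval included 0 (62.9 and 70.0 CPM). Gpx1 was lower relative to the median gene in the other endocrine classes too, at 95.6 and 67.5 CPM in the α class (−0.51), 211 and 159 CPM in the δ class (−0.39) and 149 and 85.1 CPM in the PP class (−0.77). In the α, δ and PP classes that placed Gpx1 below all but 0.98%, 4.99% and 3.19% of the genes tested.

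The PP class of the library labelled TBL/RβKO held levels of Txnip, Nqo1, Sod2 and Cat whose counting intervals for the ratio to its β class included no difference, and 1.77-fold more Gpx3 (255 and 144 CPM). Txnrd1 stood at 200.2 CPM in the control PP class and at 467 CPM in the other (centred 1.26, 1.18 to 1.34), and Nqo1 at 7.24 and 24.5 CPM (1.80, 1.38 to 2.24). These were the 2 of 9 tested members past 2-fold upward, against 4.52% of all genes, and none passed downward, against 1.44%. Txnip stood at 123 and 180 CPM (0.58, 0.47 to 0.69), while Gpx3 (456 and 255 CPM, −0.80) and Gpx1 were lower. The PP class also differed in its hormone level, with median Ppy at 3210 and 1209 UMIs per 10000, while Tbl1x stood at 159 and 464 CPM. The stromal markers summed to 9.5 CPM in the control PP class, with 4 of 8 at 0, and to 165 CPM in the other, with none at 0.
Both PP calls rested on some of its barcodes. In the 210 barcodes with 6000 or more genes of the library labelled TBL/RβKO, Nqo1 was at 34.4 CPM and Txnrd1 at 544 CPM, whereas the 285 barcodes with fewer genes held 3.74 and 305 CPM. The corresponding control barcodes held 6.73 and 8.02 CPM of Nqo1 and 213 and 181 CPM of Txnrd1. With fewer than 6000 genes, the limit used by the study, the ratio of Nqo1 in the PP class was −1.10, from levels under 10 CPM in both libraries and so not called, and no tested member passed 2-fold. PP barcodes with 100 or more insulin UMIs per 10000 had more Txnrd1 (598 CPM) and Txnip (241 CPM) than those with less insulin (346 and 124 CPM) in that library. In the control PP class the same split gave 199.5 and 200.3 CPM for Txnrd1. Median insulin per 10000 was 71.4 in the control PP class and 20.0 in the other. In macrophage-like barcodes, which should lack insulin, it was 73.8 and 17.2. The limit of 100 thus stood closer to these medians in the control library. Whether it selected the same kind of barcode in both was not tested. Whether the PP barcodes with insulin were PP-cells, β-cells with little insulin or mixtures was not tested.

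Txnip differed between libraries in the upper part of its distribution over β barcodes. Each barcode was thinned to 20000 UMIs outside hormones, which left 2049 control barcodes and 1237 in the library labelled TBL/RβKO. The median barcode held 1 Txnip UMI in both libraries, whereas the 90th percentile was 4 and 11 UMIs and the 99th was 12 and 33.6 UMIs. Barcodes with 10 or more UMIs made up 2.0% of the control class (41 of 2049, exact binomial interval 1.44% to 2.70%) and 11.7% of the other (145 of 1237, 9.98% to 13.6%). In the PP class the same share was 2.34% (3 of 128) and 10.2% (32 of 315), and in the α class 4.82% and 5.84%.
Txnrd1 differed at every percentile examined, with a median of 4 and 8 UMIs, a 10th percentile of 2 and 3 and a 90th percentile of 9 and 21. Prdx1 also differed throughout, with a median of 6 and 8 UMIs. At a common 5000 UMIs per barcode, Txnip was seen in 29.2% of control β barcodes and 34.8% of the others, and Txnrd1 in 63.7% and 81.5%. Txnip in control macrophage-like barcodes, a type with little of it, was seen in 11.1% at 5000 UMIs. Unthinned, it was seen in 25% of them and in 69.7% of control β barcodes. The median depths were 22914 and 25335 UMIs outside hormones.

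**Figure D3:**
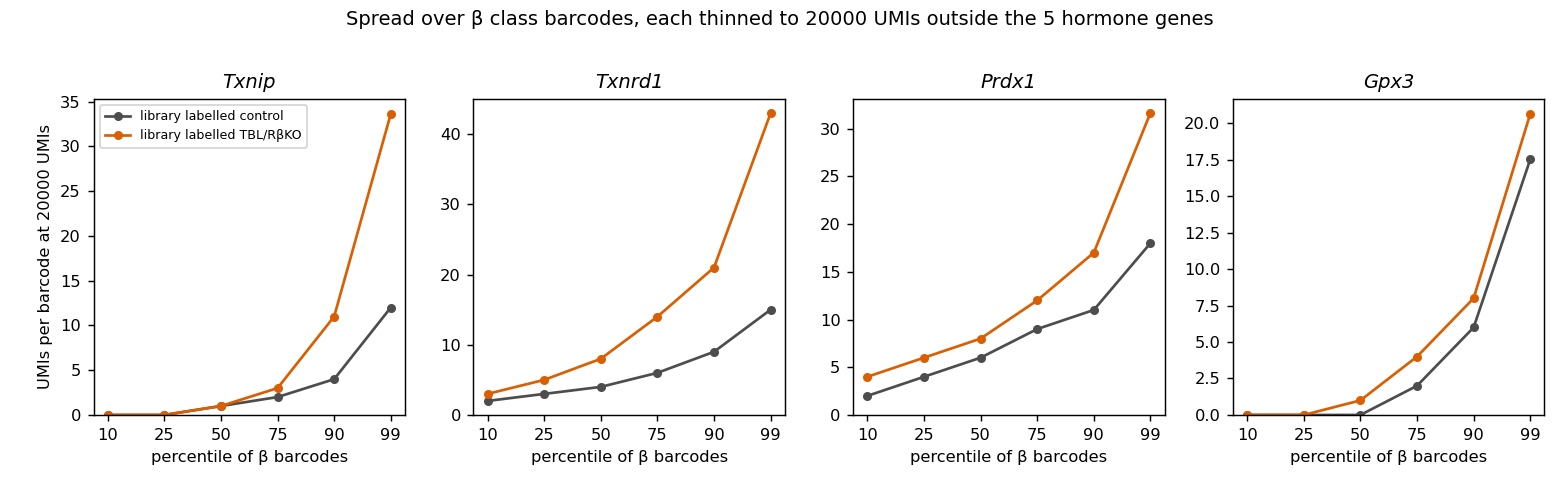
Percentiles of Txnip, Txnrd1, Prdx1 and Gpx3 UMIs per β barcode after thinning to 20000 UMIs outside the hormones, for the control library (grey) and the library labelled TBL/RβKO (orange). The Txnip lines meet at a median of 1 UMI and part at the 90th percentile (4 and 11), while the Txnrd1 lines are apart throughout (medians of 4 and 8).

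Barcodes with 1000 CPM of Txnip or more, a limit chosen after the values were seen, were described separately. There were 16 in the control β class and 45 in the β class of the library labelled TBL/RβKO, where they held 25.8% of all Txnip UMIs (5.61% in the control). Without them Txnip stood at 82.6 and 135 CPM. In the library labelled TBL/RβKO these 45 barcodes had less insulin than the rest (median 1438 and 2401 per 10000) and less Mafa (25.1 and 127 CPM). They had more Nqo1 (56.5 CPM, 46.3 to 68.2, against 21.9) and Txnrd1 (644 CPM, 609 to 681, against 540.1), but less Gpx3 (94.1 and 146 CPM) and Gpx4 (207 and 326 CPM). Ptger3, a prostaglandin receptor, was among the genes with a high ratio to the rest, at 255 and 7.25 CPM, and was detected in 25 of the 45. In the 20 PP barcodes of that library above the limit Ptger3 stood at 115 and 3.24 CPM (9 barcodes), and they held little Gpx3 (25.0 against 268 CPM).
The 16 control barcodes likewise had less insulin than the rest (median 3497 and 5094 per 10000) and less Mafa (163 and 943 CPM). They had less Gpx4 (264 and 355 CPM) but more Gpx3 (209 and 110 CPM). Their leading genes were different. Hspa5, the main chaperone of the endoplasmic reticulum, stood at 4679 CPM there and at 839 CPM in the rest and was detected in all 16. Herpud1, also of the unfolded protein response, stood at 1194 and 198 CPM (13 of 16). Txnrd1 did not stand out in these barcodes (222 CPM, 172 to 281, against 237). Arrdc4, the closest relative of Txnip, was at 45.7 CPM in them (25.0 to 76.6) and at 8.38 CPM in the rest, and in the library labelled TBL/RβKO at 14.1 and 7.18 CPM.

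The size of the β differences varied with the insulin share of the barcode, but the insulin ranges also differed in second hormones. At 1000 to 3000 insulin UMIs per 10000, 82.2% of control barcodes and 79.4% of the others held a second hormone at 100 or more. At 3000 to 5000 these shares were 22.5% and 40.3%, and at 5000 or more they were 3.39% and 7.80%. The part of second hormones in the differences below was not tested. Among barcodes with 5000 or more insulin UMIs per 10000 (1532 in the control library and 141 in the other), Txnrd1 stood at 217 and 312 CPM (centred 0.73, 0.65 to 0.81) and Txnip at 74.2 and 72.1 CPM (0.16, 0.00 to 0.32). Among those with 1000 to 3000 (152 and 574 barcodes), Txnrd1 stood at 282 and 576 CPM (1.31, 1.24 to 1.37) and Txnip at 138 and 212 CPM (0.90, 0.80 to 0.99). In the range of 3000 to 5000 (1030 and 380 barcodes) the centred ratios were 1.13 and 0.70. Txnrd1 was therefore higher in the library labelled TBL/RβKO at every insulin share, whereas Txnip at the highest share differed little. Nqo1 changed sign across the shares, from 1.69 at 1000 to 3000 (9.81 and 26.2 CPM) to −0.83 at 5000 or more (15.8 and 7.68 CPM). Prdx1 and Sod1 were higher from 1000 upward in each range, Prdx1 by centred ratios of 0.46 to 0.79 and Sod1 by 0.41 to 0.56. Below 1000 the control library held 1577 CPM of Prdx1 and 193 CPM of Gpx1, in the range where the macrophage-marked barcodes described above were found, and their part in those values was not tested.
Gpx3 followed the presence of a second hormone. In β barcodes with every other hormone under 100 per 10000 it stood at 40.8 CPM (2409 control barcodes) and 42.7 CPM (525 barcodes), and in those with another hormone at 100 or more at 337 CPM (468) and 191 CPM (813). The same split changed Txnrd1 little, from 230 to 259 CPM in the control library and from 526 to 551 CPM in the other. Txnip went from 82.0 to 104 CPM and from 135 to 197 CPM. Whether a second hormone marked a doublet, free RNA or a cell that makes both was not tested.

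**Figure D4:**
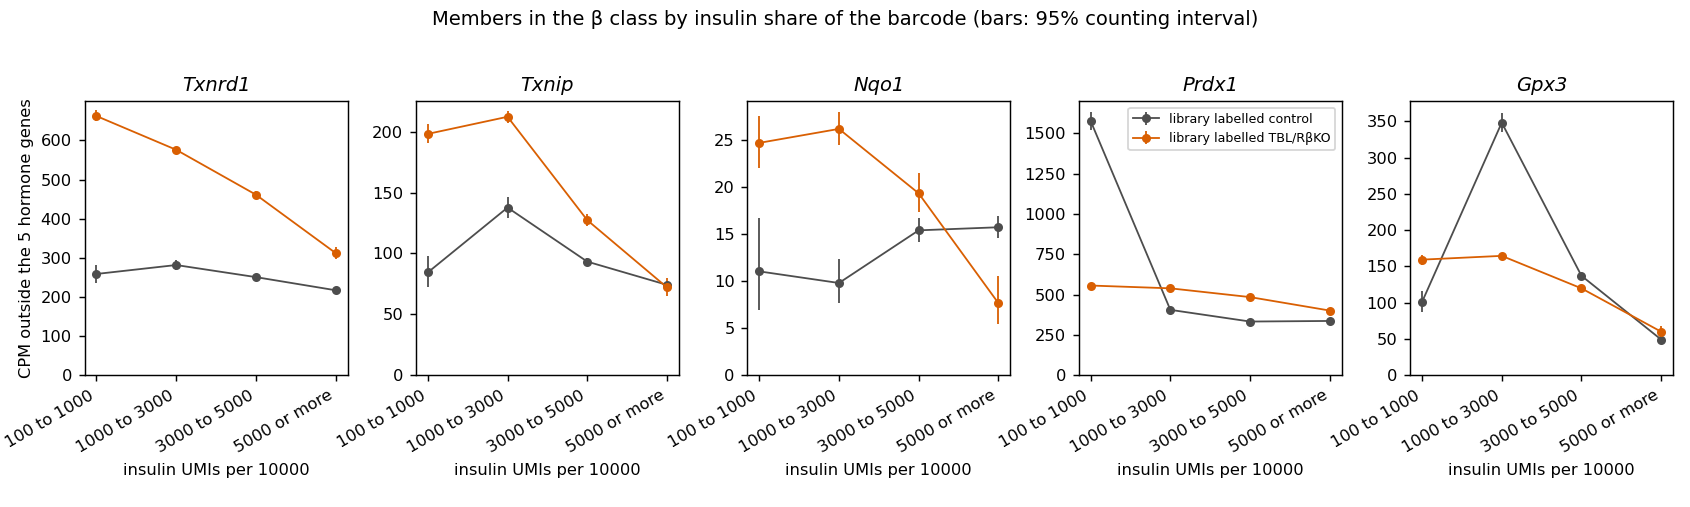
Level (UMIs per 1000000 outside the 5 hormone genes, axes from 0) of Txnrd1, Txnip, Nqo1, Prdx1 and Gpx3 in β barcodes grouped by insulin UMIs per 10000, in the control library (grey) and the library labelled TBL/RβKO (orange), with 95% counting intervals. Txnrd1 is apart in all 4 ranges, Txnip meets at 74.2 and 72.1 CPM in the highest range, and Nqo1 crosses over.

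Cre transcripts gave a further split within the β class of the library labelled TBL/RβKO. The 274 barcodes with a Cre UMI held 246 CPM of Txnip and the 1064 without one 157 CPM. Txnrd1 was similar in both (531 and 546 CPM), as were Nqo1 (23.8 and 22.5 CPM), Gpx3 (145 and 144 CPM) and Gpx1 (78.3 and 76.1 CPM). Absence of a Cre UMI does not mark a cell without recombinase.

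Other genes of the same pathways were read from lists that, like the members, were chosen with earlier results of these data known. Their counts are therefore a description and not an independent enrichment. NRF2, encoded by Nfe2l2, is the transcription factor that induces many antioxidant genes when KEAP1 releases it. Of 21 listed NRF2 components and targets, all tested, 9 were at least 2-fold higher in the β class of the library labelled TBL/RβKO. None was 2-fold lower, and the median centred log2 ratio was 0.77. Over all genes tested in that class 4.5% were 2-fold higher and 2.47% lower. The 9 were Srxn1, Gclc, Maff, Slc7a11, Pgd, Me1, Osgin1, Sqstm1 and Ftl1. Srxn1, which restores overoxidised peroxiredoxins, stood at 61.7 and 161 CPM (1.58), and Gclc, the catalytic subunit of the enzyme that limits glutathione synthesis, at 52.5 and 135 CPM (1.55). Me1, a source of NADPH, was at 47.2 and 134 CPM (1.70), and Maff, a small MAF factor, at 6.38 and 18.9 CPM (1.77). The lowest of the list were Taldo1 (149 and 122 CPM, −0.10) and Mafg (80.8 and 66.6 CPM, −0.08). In the PP class 7 of the 21 were 2-fold higher (median 0.69), in the δ class 1 of 20, Maff (median 0.27), and in the α class none of 19 (median 0.07). The shares of all genes 2-fold higher in the PP, δ and α classes were 4.52%, 0.95% and 0.739%.
The response element core was found before the start of 6 of the 19 list genes with a promoter entry, beside 11.5% of all genes counted the same way. These 6 were Nfe2l2, Maff, Mafg, Mafk, Gclm and G6pdx. Of them Maff alone was 2-fold higher in the β class, and Gclc, also higher there, had no promoter entry.
The other lists moved less in the β class, where 4.5% of all genes were 2-fold higher and 2.47% lower. Of 13 tested genes of the thioredoxin and peroxiredoxin system, Srxn1 alone was 2-fold higher and the median was 0.02. Srxn1 is also counted in the NRF2 list. Txn1, the substrate of Txnrd1 and the protein that Txnip binds, stood at 245 and 374 CPM (0.80), and Sesn3 at 183 and 102 CPM (−0.64). Of 14 glutathione genes, Gclc and Gstp1 were higher (median 0.16), and Gclc is also counted in the NRF2 list. Gstp1, a glutathione transferase, was the list gene with the highest ratio, at 116 and 883 CPM in the β class (3.13), 56.7 and 138 CPM in the α class (1.28) and 123 and 578 CPM in the PP class (2.27). Glrx, a glutaredoxin, was at 55.0 and 24.1 CPM (1.99-fold lower than the median gene, just short of the limit).
Gpx1, Gpx3, Gpx4 and Txnrd1 encode selenocysteine enzymes. Of the 23 other tested genes of selenoproteins and their synthesis 1, Selenop, was 2-fold lower in the β class, against 2.47% of all genes, and none was 2-fold higher (median −0.21). Selenop, the secreted selenium carrier, stood at 201 and 41.9 CPM in the β class (−2.07), at 296 and 135 CPM in the PP class (−1.10) and at 195 and 192 CPM in the α class (−0.04). Selenom, a selenoprotein of the endoplasmic reticulum, was at 452 and 241 CPM (−0.71). The highest of the list were Txnrd2, the mitochondrial thioredoxin reductase, at 13.5 and 15.2 CPM (0.36), and Gpx2, a glutathione peroxidase, at 159 and 146 CPM (0.07).
None of the 6 tested relatives of Txnip and glucose-sensing factors passed 2-fold in the β class (median −0.07). Mlxipl, which encodes the ChREBP factor that binds carbohydrate response elements, was at 223 and 239 CPM (0.30), and Klf10, one of its targets, at 12.2 and 20.6 CPM (0.95). In the PP class Mlxipl, named after its value was seen, stood at 57.0 and 174 CPM (1.65). Of 17 peroxisomal genes none passed (median 0.00). Of 3 other superoxide genes Cyba, a subunit of the NADPH oxidase, was lower at 17.1 and 6.21 CPM (−1.27), and it is also carried by macrophages.
The list of ROS defense genes used by the study, which it drew from the literature, shares 9 of its 32 genes with the members, so its count is not separate from theirs. Of its 29 tested genes 5 were higher in the β class (Txnrd1, Gclc, Gstp1, Ftl1 and Cd44), none was lower, and the median was 0.25. Over all genes 4.5% were 2-fold higher and 2.47% lower.

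**Figure D5:**
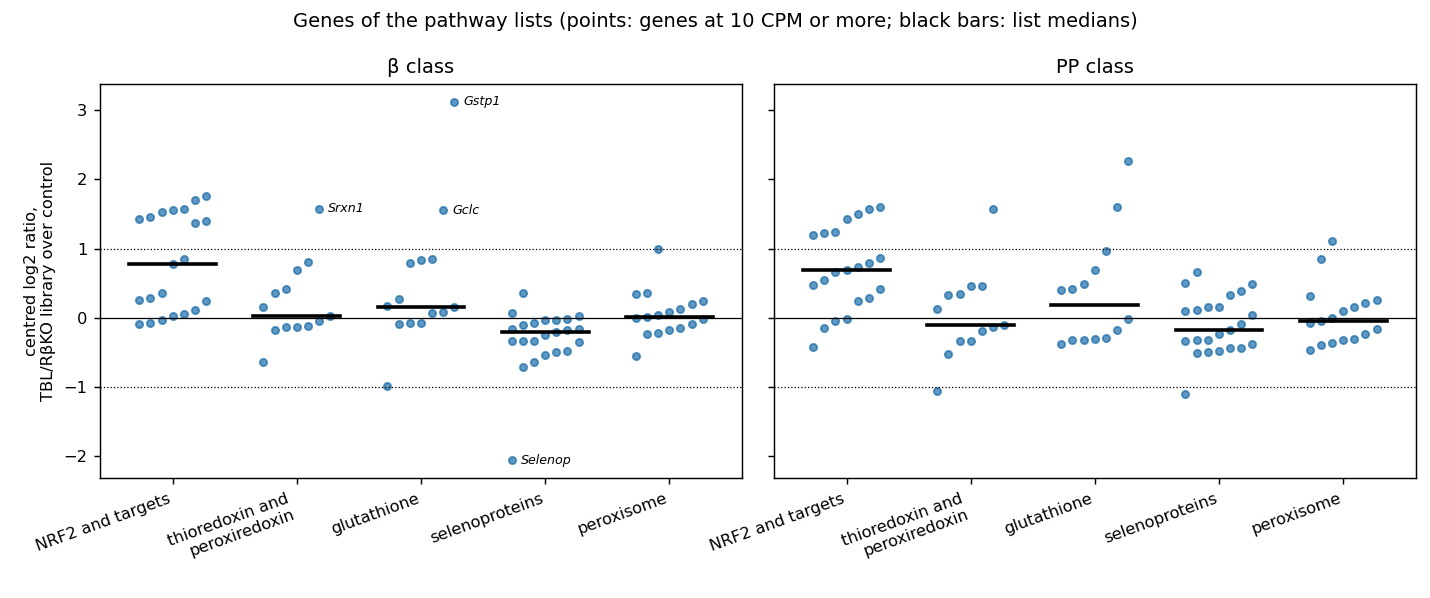
Centred log2 ratio (library labelled TBL/RβKO over control) of the tested genes of 5 pathway lists in the β and PP classes, with 1 point per gene, black bars for list medians and dotted lines at 2-fold. The NRF2 list has medians of 0.77 and 0.69, and Gstp1 (3.13) and Selenop (−2.07) are the outermost β points.

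The genes most like the called members in their pattern were taken by Pearson correlation of log2(CPM + 1) over 16 class-by-library sums and 12599 genes. These sums share their libraries and depth. For Txnrd1 they were Fmnl2 (r = 0.94), Srxn1 (0.91) and Gclm (0.90), of which Srxn1 and Gclm were on the NRF2 list. For Txnip they were Ppp1cb (0.94), Arid2 (0.93) and Prkd1 (0.93), and none of these was on a list.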

How the data were processed

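Islet cells of 2 pooled samples, 1 per group, were sequenced with 10x Genomics 3′ chemistry (v3.1). Deposited values are UMI counts, not normalised, in filtered matrices from Cell Ranger 7.1.0, run by the authors. The submitters' processing notes name GRCm39 and mm39.

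Here barcodes with over 2500 genes and under 10% mitochondrial UMIs were kept. Counts were summed by library and hormone class and divided by UMIs outside Ins1, Ins2, Gcg, Sst and Ppy. Log2 ratios (TBL/RβKO over control) were centred on the median of genes at 10 CPM or more in either library, and called at 2-fold. Intervals are exact (Poisson for levels, conditional binomial for ratios, Clopper-Pearson for shares). No doublet caller was run, and limits on a second hormone stood in for it. Barcodes with no hormone class were typed by 3 or more detected markers that held over 50% of all non-endocrine marker UMIs, and types with under 20 barcodes were not described. Named genes were the members, the 2 highest and 2 lowest β ratios of each list, and the 3 genes most alike in pattern to members past 2-fold in the β class. The members and lists were chosen with earlier results of these data known. The ratio and its interval were tested on simulated data. Python 3.11.15, numpy 2.4.6, scipy 1.17.1 and pandas 2.3.3 were used. Library totals were 241434108 and 185062206 UMIs. Alternatives to the filters, scaling and depth were computed for every class.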

Additional observations from a re-analysis of the deposited data

Results flagged for a closer look

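For 6 members the ratio between libraries had opposite signs in different hormone classes with both counting intervals clear of 0, in 9 pairs of classes. Txnip was past 2-fold upward in the β class of the library labelled TBL/RβKO (centred log2 ratio 1.22, from 87.2 to 177 CPM) and lower in the α class (−0.21, from 192 to 167 CPM), which also differed in sign from the PP class (0.58). Gpx3 had ratios of 0.59 in the β class and −0.80 in the PP class. Sod1 stood at 0.54 in the β class and 0.43 in the PP class against −0.058 in the α class. Sod2 was at 0.05 in the β class, −0.18 in the α class and −0.32 in the PP class. Gpx4 was at 0.06 in the β class and −0.14 in the PP class, and Prdx1 at 0.69 in the β class and −0.11 in the δ class. Some of these signs depended on the setting. Without centring, Gpx4 and Sod2 in the β class stood at −0.13 and −0.15. By uncentred CPM of all UMIs, Sod1 reached 0.04 in the α class and Gpx4 0.11 in the PP class. Prdx1 in the δ class reached 0.14 with every other hormone under 100 per 10000. The signs named for Txnip and Gpx3 held in all alternatives. With 1 library per group none of these differences between classes was tested, and the intervals cover counting error only.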

How the results depend on the processing

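Over 13 other settings and 2 more chosen after seeing the data, Txnrd1 in the β class stayed past 2-fold (1.20 to 1.68) and Txnip did in 13 of 14 (0.87 to 1.51). Members higher in the β class numbered 1 with every other hormone under 100 per 10000. Members higher in the PP class numbered 0 with fewer than 6000 genes, where Nqo1 reversed to −1.10, and 0 with a hormone threshold of 1000, and 1 with other hormones under 100, at 50 CPM or more, as a mean over barcodes and when thinned. Counts over all genes (higher and lower) moved as follows. At 50 CPM they were 207 and 99 (β), 23 and 3 (α), 21 and 12 (δ) and 215 and 56 (PP), since fewer genes were tested. With no minimum level they were 3197 and 1409, 1619 and 1308, 1845 and 996, and 2592 and 1304. By uncentred CPM of all UMIs they were 741 and 145 (β) and 651 and 62 (PP). With fewer than 6000 genes, higher counts were 43 (α), 48 (δ) and 271 (PP, with 79 lower). With other hormones under 100 they were 42 lower (α) and 392 and 203 (δ). With the threshold of 1000 they were 32 higher (α), 103 lower (δ), and 201 and 50 (PP). As a mean over barcodes they were 37 higher (α), 56 higher (δ) and 69 lower (PP). Thinning gave 164 and 159 (δ), a mitochondrial limit of 5% gave 70 lower (PP), and insulin under 300 outside the β class (added) gave 90 lower (PP). Unthinned, Txnip was seen in 69.7% and 75.7% of β barcodes and Txnrd1 in 96.3% and 98.1%. Apart from what a setting removes by construction, the cause was not tested. No paired analysis was possible because each group has 1 library and the result comes from no test, and for the same reason no library could be left out. Cat and Nqo1 are limited by their low counts.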
